A study of Homo sapiens with 6 samples.

Results

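The subunits of TFIID and the other general transcription factors were followed in LNCaP cells exposed to a CDK9 inhibitor. Members were chosen by name: *TBP*, *TBPL1*, every *TAF* symbol made of a number with an optional paralog letter, and every *GTF2* or *GTF3* symbol other than those with a pseudogene ending (P and digits), at a mean of at least 0.5 CPM over the 6 samples, where CPM give a gene's reads as a share of all counted reads of its library. The rule gave 49 members among 13373 genes at that level and 29744 genes listed. It used no difference between treatments. Of 51 symbols with such names, *TAF7L* (mean 0.102 CPM) and *GTF2A1L* (0 CPM in every sample) fell under the limit, and the member nearest to it was *GTF2IRD2* at 0.547 CPM. *TAF7* has no row in the table and was not analyzed here.

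LNCaP cells are a prostate carcinoma line that depends on androgen signaling. CDKI-73 inhibits CDK9, the kinase that frees paused RNA polymerase II for elongation. Per the paper, CDK7, CDK2 and CDK1 are weaker targets of the compound in vitro. After longer exposure of LNCaP cells, the paper found less of a polymerase phosphorylation that CDK7 makes. It holds CDK9 to be the main route of the anti-tumor activity. Which kinase lies behind a change in any member was not tested. One group of 3 biological replicates received 250 nM CDKI-73 for 4 h, and the other group of 3 received the solvent DMSO, with polyA+ RNA sequenced from each. Titles of the DMSO samples also carry the name CDKI-73, and their treatment label was taken to make them vehicle, so every direction given here rests on that label. Both groups are 1 cell line at 1 dose and 1 time.

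TFIID is the complex that recognizes core promoters. It consists of the TATA-binding protein TBP and a set of TBP-associated factors (TAFs), many of which pair through histone folds, and it nucleates a preinitiation complex in which TFIIA steadies TBP on DNA, TFIIB bridges TBP and RNA polymerase II, TFIIF travels with the polymerase, and TFIIE recruits TFIIH, which opens the DNA. TBP is shared with the machineries of RNA polymerase I, through the SL1 complex, and of RNA polymerase III, which also uses TFIIIA and TFIIIC.

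The libraries held an inferred 46.1 to 52.0 M counted reads in the CDKI-73 group and 52.9 to 60.9 M in the DMSO group, so that 1 read was worth 0.0164 to 0.0217 CPM. All 6 luminal prostate markers were present, with sums of 5529 to 5807 CPM in CDKI-73 samples and 6499 to 6860 CPM in DMSO samples. The markers listed for other cells were mixed. Basal *KRT5* and *TP63*, stromal *COL1A2* and *DCN*, immune *PTPRC* and *CD3E*, and endothelial *PECAM1* and *CDH5* were at 0 to 0.04 CPM. The remaining marker of each type was measured at 0.51 to 1.31 CPM (*KRT14*), 9.40 to 14.9 CPM (*COL1A1*), 4.81 to 7.22 CPM (*CD68*) and 10.0 to 11.9 CPM (*VWF*). The part of other cells in the members' values was not tested. CDKI-73 replicate 3 stood apart, with a median absolute log2 difference of 0.148 and 0.159 from the other 2 CDKI-73 samples, against 0.0648 between those. It was the lowest of its group for 25 of the 49 members, and for 45.2% of all genes tested. Because CPM are shares of a library, a fall in total RNA per cell is not visible in them, and in these bulk samples a loss in some cells and a smaller loss in all cells cannot be told apart.

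Of the 49 members, 28 (57.1%) passed limma's adjusted threshold of 0.05 with lower CPM in CDKI-73 samples, beside 48.2% of all genes tested, and 7 (14.3%) passed with higher CPM, beside 24.2% of all genes. The other 14 did not pass. At least 2-fold lower were 14 members (28.6%, beside 22.3% of all genes), and at least 4-fold lower were 5 (10.2%, beside 8.12%). *TAF1L*, counted among the 28 and the 14, met the CPM limit only through its DMSO samples. With a limit of 2 CPM, which leaves it out, 27 members were lower and 13 were lower by at least 2-fold. No member was at least 2-fold higher, a class that held 1.11% of all genes, and none was so at an unadjusted p under 0.05 in limma. The groups did not overlap for 37 members (75.5%), beside 75.9% of all genes. The members' shares therefore lay near those of the transcriptome, and their median log2 fold change was -0.37, beside -0.18 over all genes. What set the members apart from each other was size: the log2 fold change ran between -3.34 for *GTF2E1* and 0.65 for *TAF10*, and subunits of the same complex lay far apart on that scale.

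The split of the calls moved with the scaling. With 28 members lower and 7 higher in the CPM as deposited, trimmed-mean scaling gave 25 and 11, scaling to the median of gene ratios 25 and 13, upper-quartile scaling 17 and 23, and scaling to *GAPDH*, *HPRT1* and *ACTB* (reference-gene scaling) 44 and 1. The calls over all 13373 genes moved too, from 6441 lower and 3242 higher as deposited. In the same order of scalings, they were 5507 and 4775, 5279 and 5122, 3949 and 7311, and 9882 and 395. Upper-quartile scaling also turned the members' median to 0.12, beside 0.31 over all genes, and made *TAF10* the 1 member higher by at least 2-fold. These scalings shift log2 fold changes by up to 0.16, 0.20, 0.50 and -0.41, and by less in low genes such as *TAF1L*, because of the pseudocount. Under the deposited scaling and all 4 others, 17 members passed as lower (29.5% of all genes did), and 1, *TAF10*, passed as higher (2.95% of all genes). The 17 were *TBP*, *TBPL1*, *TAF1*, *TAF4*, *TAF5*, *TAF8*, *TAF1L*, *TAF4B*, *TAF5L*, *TAF6L*, *TAF1A*, *TAF1B*, *GTF2A1*, *GTF2B*, *GTF2E1*, *GTF2IRD1* and *GTF3C4*, which include all 14 with a fall of at least 2-fold. The 17 and the 14 both hold *TAF1L*, with the limit on it given above. Leaving out CDKI-73 replicate 3 gave 28 lower, 8 higher and 14 lower by at least 2-fold.

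**Figure D1:**
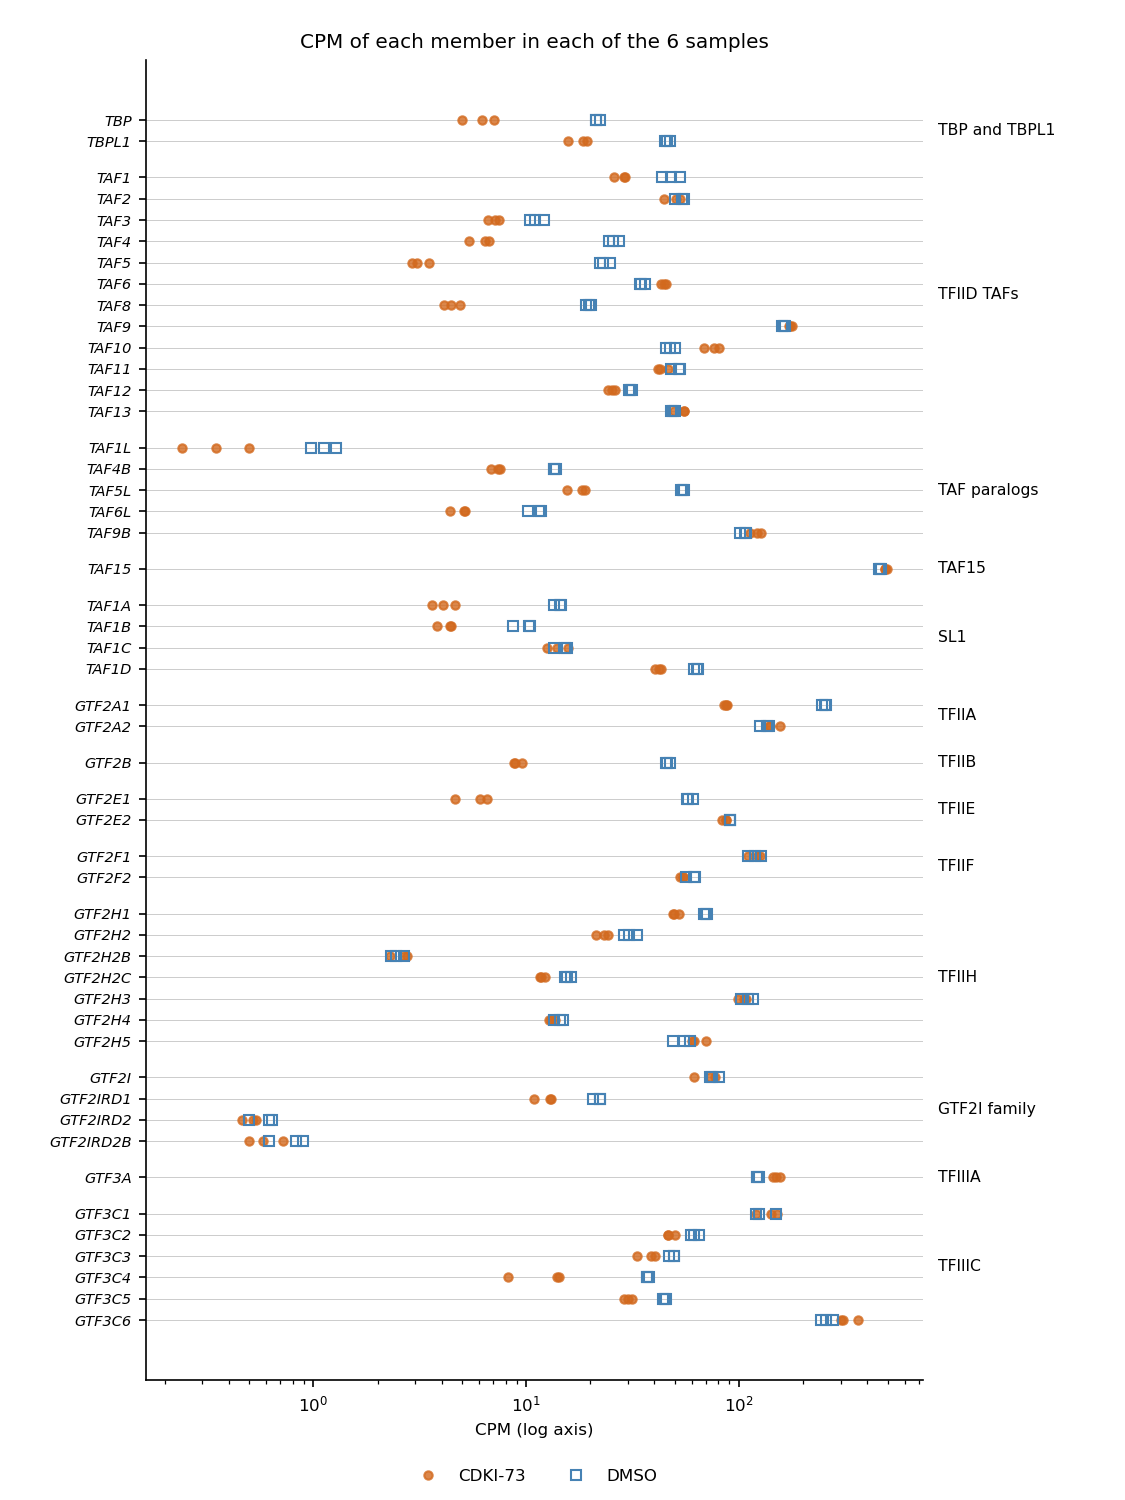
CPM of each of the 49 members (log axis) in the 3 CDKI-73 samples (filled circles) and the 3 DMSO samples (open squares), grouped by complex. The groups lie far apart for *GTF2E1*, *TAF5*, *GTF2B*, *TAF8* and *TAF4*, while *GTF2F1*, *GTF3C1* and *GTF2H3* overlap.

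The sequence before the start of 6 members is shown because these genes span the range of responses, the larger falls first: *GTF2E1* (chr3:120742494-120742743, plus strand), *GTF2B* (chr1:88891568-88891817, minus strand), *TBP* (chr6:170554119-170554368, plus strand), *GTF2A1* (chr14:81221391-81221640, minus strand), *GTF3A* (chr13:27424369-27424618, plus strand) and *TAF10* (chr11:6612217-6612466, minus strand). Each run holds the 250 bases upstream of the RefSeq start in GRCh38.p14, 5′ to 3′ on the gene's strand. Capitals mark every match, on either strand, to 6 motifs. The box bound by TBP was searched as TATAAA, the core of ETS factor sites as CCGGAAG, and the Sp1 site as GGGCGG. The NRF1 element was searched as GCGCATGC, the NF-Y box as CCAAT and the YY1 core as AAGATGGC.
GTF2E1: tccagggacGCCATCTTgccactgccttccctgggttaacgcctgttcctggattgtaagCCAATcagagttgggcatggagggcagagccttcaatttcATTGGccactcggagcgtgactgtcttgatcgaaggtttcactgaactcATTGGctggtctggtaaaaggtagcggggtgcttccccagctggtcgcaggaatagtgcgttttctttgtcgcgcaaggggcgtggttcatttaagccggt
GTF2B: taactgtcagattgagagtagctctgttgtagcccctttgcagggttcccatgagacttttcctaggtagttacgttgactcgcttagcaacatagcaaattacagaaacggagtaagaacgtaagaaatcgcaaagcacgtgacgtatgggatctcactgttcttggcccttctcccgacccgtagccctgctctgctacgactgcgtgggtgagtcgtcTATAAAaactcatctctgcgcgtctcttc
TBP: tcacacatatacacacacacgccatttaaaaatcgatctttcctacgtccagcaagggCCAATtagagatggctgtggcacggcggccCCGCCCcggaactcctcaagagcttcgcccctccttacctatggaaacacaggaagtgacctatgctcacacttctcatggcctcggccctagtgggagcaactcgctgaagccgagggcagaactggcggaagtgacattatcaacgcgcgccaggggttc
GTF2A1: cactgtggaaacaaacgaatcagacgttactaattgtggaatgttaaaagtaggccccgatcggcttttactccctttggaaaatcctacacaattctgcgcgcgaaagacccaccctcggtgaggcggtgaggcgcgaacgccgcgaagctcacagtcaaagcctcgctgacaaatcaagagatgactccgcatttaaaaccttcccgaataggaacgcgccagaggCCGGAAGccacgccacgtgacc
GTF3A: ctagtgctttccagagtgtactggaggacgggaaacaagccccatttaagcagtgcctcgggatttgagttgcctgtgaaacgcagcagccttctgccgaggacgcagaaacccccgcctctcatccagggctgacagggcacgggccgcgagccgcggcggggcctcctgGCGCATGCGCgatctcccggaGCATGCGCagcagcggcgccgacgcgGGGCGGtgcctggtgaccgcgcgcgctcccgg
TAF10: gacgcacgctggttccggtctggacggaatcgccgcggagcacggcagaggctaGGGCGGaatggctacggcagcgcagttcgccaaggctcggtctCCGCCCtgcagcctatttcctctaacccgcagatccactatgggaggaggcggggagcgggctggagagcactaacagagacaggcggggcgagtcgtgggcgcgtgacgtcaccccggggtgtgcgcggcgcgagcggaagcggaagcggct

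The *GTF2B* sequence holds TATAAA, the element that TBP itself binds, with its first base 29 bases before the start. In *GTF2E1* the capitals are 3 CCAAT boxes and 1 YY1 core. The *GTF2A1* run has an ETS core 22 bases before the start, *GTF3A* has 3 NRF1 matches, of which 2 overlap, and 1 Sp1 site, and *TAF10* has 2 Sp1 sites. RefSeq promoter entries matched 40 of the 49 members. Among these, CCGGAAG was in 14 of 40 (35.0%), beside 16.4% of the 9487 promoters of tested genes and 8.8% of all 27305 promoters of this length. TATAAA was in 2 of 40 (5.0%, *GTF2B* and *GTF3C3*), beside 5.0% of tested and 11.1% of all promoters. The shares for GGGCGG were 55.0%, 67.5% and 42.3%, for CCAAT 37.5%, 35.7% and 33.0%, for GCGCATGC 5.0%, 4.9% and 2.8%, and for AAGATGGC 5.0%, 1.9% and 1.4% of member, tested and all promoters. A letter match is a description and not a measured binding site.

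*TBP*, the DNA-binding core of TFIID, fell in every treated sample. It had 6.18, 7.05 and 5.01 CPM in the CDKI-73 samples, against 22.3, 21.2 and 21.3 CPM in the DMSO samples. The highest CDKI-73 value was well under the lowest DMSO value, and the log2 fold change was -1.82 (SE 0.117, adjusted p = 2e-06, limma). The gene lies at chr6:170554369-170572859 on the plus strand. *TBPL1*, a TBP-like factor that does not bind the TATA box, had 18.5, 19.3 and 15.8 CPM with CDKI-73, against 47.3, 46.0 and 45.1 CPM with DMSO. Its groups were also apart, at -1.37 on the log2 scale (adjusted p = 1.1e-06). The per-sample log2 ratio of *TBP* over *TBPL1* was -1.57, -1.44 and -1.64 with CDKI-73 and -1.08, -1.12 and -1.08 with DMSO, a difference of -0.46.

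Among the 12 TFIID TAFs measured, 7 passed as lower, 3 as higher and 2 did not pass, with 3 lower by at least 4-fold. Those 3 were *TAF5*, *TAF8* and *TAF4*. Of all genes tested, 48.2% passed as lower, 24.2% as higher, and 8.12% were at least 4-fold lower. The counts for this and each other complex are of few genes and stand beside those shares. *TAF5*, a scaffold subunit with WD40 repeats, had 3.48, 3.08 and 2.91 CPM in CDKI-73 samples, against 22.3, 23.0 and 24.7 CPM in DMSO samples. This was the largest fall of any TAF (log2 fold change -2.85, SE 0.0870, adjusted p = 5.8e-08 in limma). *TAF8*, the histone-fold partner of TAF10, had 4.43, 4.09 and 4.86 CPM with CDKI-73, against 19.8, 19.1 and 20.1 CPM with DMSO. The values within each group lay close together, and the log2 fold change was -2.12 (SE 0.0810, adjusted p = 1.3e-07). *TAF4*, which pairs with TAF12 and holds the complex together, had 6.68, 6.40 and 5.38 CPM with CDKI-73, against 24.6, 25.6 and 27.3 CPM with DMSO. Here too the groups were far apart, at a log2 fold change of -2.06 (SE 0.0930, adjusted p = 2.8e-07).

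*TAF1*, the largest subunit, which carries bromodomains, fell less. It had 29.2, 28.7 and 25.9 CPM with CDKI-73 and 43.6, 47.9 and 52.8 CPM with DMSO, which do not overlap (log2 fold change -0.78, adjusted p = 4.1e-05 in limma). *TAF3*, a reader of methylated histone H3, had a log2 fold change of -0.65 (adjusted p = 0.00018), but did not pass under upper-quartile scaling (-0.16, adjusted p = 0.11). *TAF11* (-0.23) and *TAF12* (-0.29), both histone-fold subunits, also passed as lower, but did not pass under trimmed-mean or median-ratio scaling and turned to 0.26 and 0.20 under upper-quartile scaling. *TAF2*, which contacts the initiator, and *TAF13*, the partner of TAF11, did not pass, with overlapping groups and log2 fold changes of -0.11 and 0.12.

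*TAF10* rose. It had 75.9, 68.5 and 80.5 CPM in CDKI-73 samples, against 45.5, 47.4 and 49.7 CPM in DMSO samples. All treated values lay above all DMSO values, and the log2 fold change was 0.65 (SE 0.0680, adjusted p = 4.3e-05 in limma). The gene span of *TAF10* overlaps that of *ILK* on the other strand, and *ILK* itself had a log2 fold change of 0.24. *TAF6*, a histone-fold subunit, had 45.5, 42.8 and 44.5 CPM with CDKI-73, against 34.2, 34.5 and 36.2 CPM with DMSO. Its groups did not overlap (log2 fold change 0.34, adjusted p = 0.00038), but the value was -0.07 under reference-gene scaling. *TAF9*, the partner of TAF6, passed narrowly at 0.11 (adjusted p = 0.037), did not pass when any sample but CDKI-73 replicate 3 was left out, and was -0.30 under reference-gene scaling. *TAF9* overlaps *AK6* on the same strand, so how reads of the shared stretch entered the counts is uncertain. *AK6* had a log2 fold change of -0.55.

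**Figure D2:**
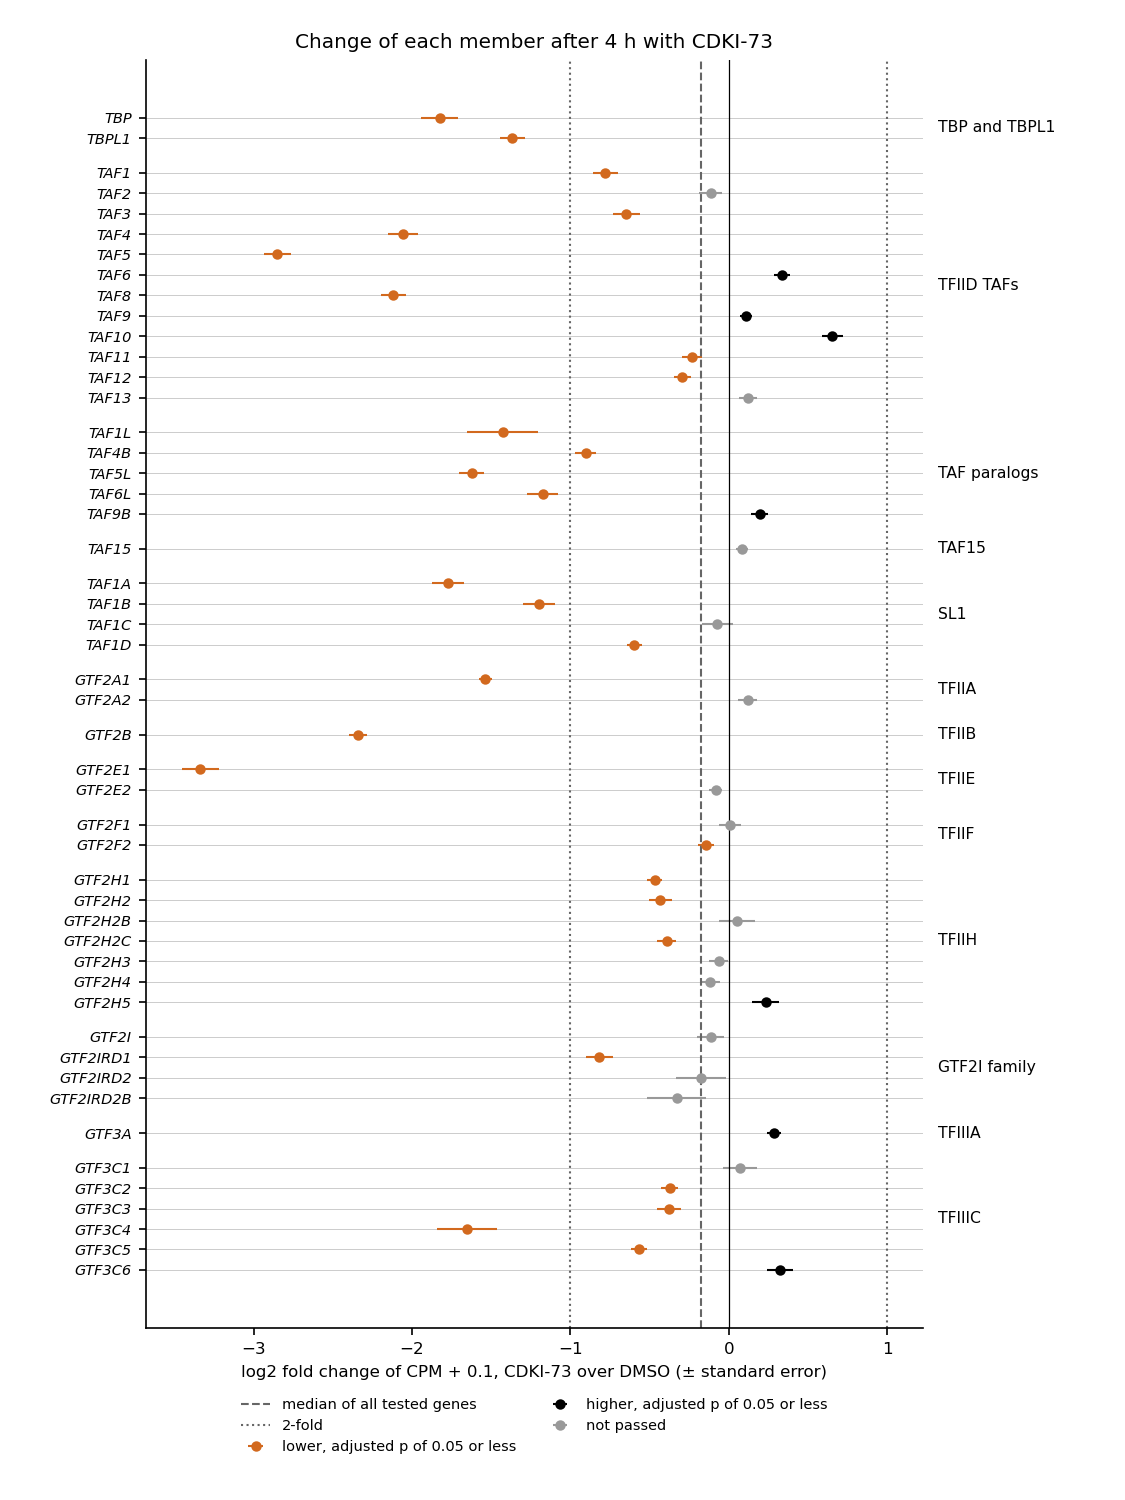
Log2 fold change of CPM + 0.1, CDKI-73 over DMSO, for each member, with the limma standard error, grouped by complex and colored by call, with the median of all tested genes dashed and 2-fold changes dotted. Falls of at least 2-fold were found for 14 members and rises of that size for none (for *TAF10* alone under upper-quartile scaling), and subunits of TFIIA, TFIIE and TFIID are spread widely.

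Of the 5 TAF paralogs at the limit or above, 4 passed as lower and *TAF9B* as higher. *TAF5L*, a subunit of the SAGA coactivator, had 18.3, 18.9 and 15.6 CPM with CDKI-73, against 54.95, 54.6 and 53.1 CPM with DMSO. The log2 fold change was -1.62 (adjusted p = 3.5e-07, limma), with no overlap. *TAF6L*, also of SAGA, had 5.18, 4.36 and 5.10 CPM with CDKI-73, against 11.5, 10.2 and 11.7 CPM with DMSO. It fell just past 2-fold (log2 fold change -1.18, adjusted p = 9e-06). *TAF4B*, a paralog of TAF4, had 6.83, 7.36 and 7.51 CPM with CDKI-73 and 13.4, 13.6 and 13.9 CPM with DMSO. That difference stayed just under 2-fold (-0.90, adjusted p = 5.2e-06).

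*TAF1L*, an intronless copy of TAF1, was near the lower limit at 0.50, 0.35 and 0.24 CPM with CDKI-73, against 0.97, 1.12 and 1.27 CPM with DMSO. The groups did not overlap (log2 fold change -1.43, adjusted p = 0.00053 in limma), though reads of *TAF1* can be placed on so similar a copy. Its CDKI-73 mean of 0.363 CPM was under the limit of 0.5 CPM, so *TAF1L* became a member only through its DMSO samples. Its fall is therefore no support for falls among the members. *TAF9B*, close in sequence to TAF9, had 121, 126 and 113 CPM with CDKI-73, against 107, 107 and 101 CPM with DMSO. It rose slightly (0.19, adjusted p = 0.013, or 0.053 without DMSO replicate 3), and stood at -0.21 under reference-gene scaling. *TAF15*, which despite its name is an RNA-binding protein, averaged 489 ± 6.90 CPM with CDKI-73 and 461 ± 5.19 CPM with DMSO (SD, n = 3 each). Its groups did not overlap, yet it missed the threshold (0.085, adjusted p = 0.076).

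Ratios of paralogs within a sample, taken of CPM + 0.1, hardly depend on the scaling. For 9 pairs tested by a two-sided exact permutation of 3 against 3, the smallest p possible is 0.1 (0.15 after adjustment over the 9), so none could pass 0.05. *TAF4* over *TAF4B* had log2 ratios of -0.032, -0.20 and -0.47 with CDKI-73, against 0.87, 0.91 and 0.97 with DMSO. *TAF5* over *TAF5L* had -2.36, -2.58 and -2.38 with CDKI-73, against -1.30, -1.25 and -1.10 with DMSO. *TAF4* and *TAF5* thus had the larger fall of their pairs, with differences of -1.15 and -1.23 (exact p = 0.1 each). *TAF6* over *TAF6L* went the other way, at 3.11, 3.27 and 3.10 with CDKI-73 and 1.57, 1.75 and 1.62 with DMSO, a difference of 1.51 (exact p = 0.1). *TAF1* over *TAF1L* differed by 0.65, but by -0.12 with a pseudocount of 1 CPM, since *TAF1L* is so low. *TAF9* over *TAF9B* overlapped between groups, with a difference of -0.088 (exact p = 0.2).

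The RNA polymerase I factor SL1 is built from TBP and 4 TAFs of its own, of which 3 passed as lower. *TAF1A* had 4.04, 4.64 and 3.60 CPM with CDKI-73, against 13.5, 14.5 and 14.4 CPM with DMSO. *TAF1B* had 4.43, 4.36 and 3.80 CPM with CDKI-73, against 10.4, 10.3 and 8.64 CPM with DMSO. Neither gene's groups overlapped, and the log2 fold changes were -1.77 for *TAF1A* (adjusted p = 1e-06, limma) and -1.20 for *TAF1B* (adjusted p = 1.3e-05). *TAF1D* fell by 0.60 on the log2 scale (adjusted p = 8.6e-06), but did not pass under upper-quartile scaling (-0.10, adjusted p = 0.083). *TAF1C* did not pass, and its groups overlapped at 12.5 to 15.7 CPM with CDKI-73 and 13.5 to 15.6 CPM with DMSO.

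In TFIIA, the larger subunit precursor and the small subunit parted. *GTF2A1*, whose product is cut into the alpha and beta chains, had 85.1, 87.8 and 87.2 CPM with CDKI-73, against 246, 257 and 252 CPM with DMSO. With a log2 fold change of -1.54 and an SE of 0.0400 (adjusted p = 3.5e-08, limma), the fall was large beside the spread between replicates. *GTF2A2*, the gamma chain, had 138, 140 and 155 CPM with CDKI-73, against 138, 136 and 125 CPM with DMSO. Those groups overlap, and the change of 0.12 did not pass (adjusted p = 0.11). The log2 ratio of *GTF2A1* over *GTF2A2* was -0.69, -0.68 and -0.83 with CDKI-73 and 0.84, 0.92 and 1.01 with DMSO.

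*GTF2B*, which encodes the single polypeptide of TFIIB and whose upstream sequence carries the TATA box shown, had 9.53, 8.88 and 8.77 CPM with CDKI-73, against 46.1, 47.5 and 45.3 CPM with DMSO. The treated samples thus lay within 1 CPM of each other, and the log2 fold change was -2.34 (SE 0.0580, adjusted p = 2.7e-08 in limma). The gene lies at chr1:88852633-88891567 on the minus strand.

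TFIIE showed the widest gap between partners among the 7 dimers compared. *GTF2E1*, the alpha subunit, had 6.06, 6.53 and 4.62 CPM with CDKI-73, against 56.9, 60.6 and 57.3 CPM with DMSO. This 10.1-fold fall was the largest of all members (log2 fold change -3.34, SE 0.119, adjusted p = 1e-07 in limma), and was -3.19 without CDKI-73 replicate 3. *GTF2E2*, the beta subunit, had 86.4, 83.4 and 87.0 CPM with CDKI-73, against 90.6, 90.9 and 90.6 CPM with DMSO. Every treated value lay below every DMSO value, but the difference of -0.084 did not pass (adjusted p = 0.095), and it was 0.41 under upper-quartile scaling. The log2 ratio of *GTF2E1* over *GTF2E2* was -3.81, -3.65 and -4.21 with CDKI-73 and -0.67, -0.58 and -0.66 with DMSO, a difference of -3.25.

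TFIIF did not show such a gap. *GTF2F1*, its large subunit, had 126, 121 and 110.3 CPM with CDKI-73, against 110.0, 119 and 127 CPM with DMSO. The groups overlapped throughout (log2 fold change 0.006, adjusted p = 0.94 in limma). *GTF2F2*, the small subunit, passed by a narrow margin at -0.14 (adjusted p = 0.038), lost the call when 1 of 4 samples was left out, and was positive under trimmed-mean (0.016), median-ratio (0.057) and upper-quartile (0.35) scaling.

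Across 7 histone-fold and factor dimers, chosen with their values known and so given without a test, the difference in log2 ratio between CDKI-73 and DMSO was -3.25 for *GTF2E1* over *GTF2E2*, -2.77 for *TAF8* over *TAF10*, -1.76 for *TAF4* over *TAF12* and -1.66 for *GTF2A1* over *GTF2A2*. In each of these 4 the groups of ratios lay far apart. The other 3 were closer to 0, at -0.36 for *TAF11* over *TAF13*, 0.23 for *TAF6* over *TAF9* and 0.15 for *GTF2F1* over *GTF2F2*, the last with overlapping groups.

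**Figure D3:**
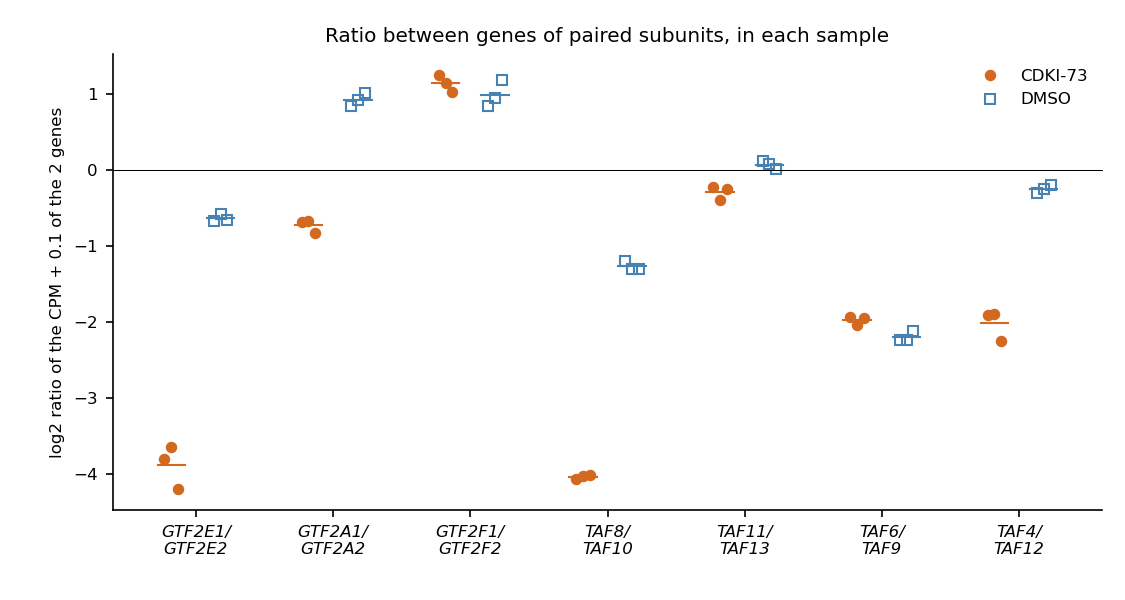
Log2 ratio of the CPM + 0.1 of 2 partner subunits in each CDKI-73 sample (filled circles) and each DMSO sample (open squares), with the group mean as a short line, for 7 dimers. The ratio of *GTF2E1* over *GTF2E2* lies between -4.21 and -3.65 with CDKI-73 and between -0.67 and -0.58 with DMSO, while *GTF2F1* over *GTF2F2* overlaps.

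The core of TFIIH, which also serves nucleotide excision repair, held smaller differences: 3 of 7 members passed as lower, 1 as higher, and none reached 2-fold. *GTF2H1* had 52.4, 49.7 and 48.9 CPM with CDKI-73, against 68.3, 69.8 and 70.5 CPM with DMSO. It fell without overlap (log2 fold change -0.47, adjusted p = 3.3e-05 in limma), although upper-quartile scaling gave 0.030. *GTF2H2* had 21.2, 24.1 and 23.2 CPM with CDKI-73 and 33.2, 30.5 and 28.8 CPM with DMSO (-0.43, adjusted p = 0.00089), and was 0.063 under upper-quartile scaling. *GTF2H2C* (-0.39, or 0.10 under upper-quartile scaling) and *GTF2H2B* (0.050, not passed) are near-identical copies of it on chromosome 5. *GTF2H2B*, annotated by RefSeq as a transcribed pseudogene, had 2.29, 2.76 and 2.65 CPM with CDKI-73 and 2.31, 2.44 and 2.67 CPM with DMSO. How reads of such similar copies entered the counts of the 3 is uncertain. *GTF2H5*, the smallest subunit, had 60.3, 61.3 and 70.1 CPM with CDKI-73, against 59.0, 55.4 and 48.7 CPM with DMSO. It rose by 0.23 on the log2 scale (adjusted p = 0.036), but did not pass without DMSO replicate 2 (adjusted p = 0.069) or without DMSO replicate 3 (adjusted p = 0.12), and was -0.17 under reference-gene scaling. *GTF2H3* and *GTF2H4* did not pass.

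The *GTF2I* family, DNA-binding regulators that share a name with the general factors but not their role, held 1 change in 4 members. *GTF2IRD1* had 13.1, 12.97 and 10.9 CPM with CDKI-73, against 20.7, 22.3 and 22.2 CPM with DMSO, and fell without overlap (log2 fold change -0.82, adjusted p = 4.3e-05 in limma). *GTF2I* had 73.3, 76.9 and 61.2 CPM with CDKI-73 and 72.9, 74.9 and 80.1 CPM with DMSO, which overlap (-0.11, adjusted p = 0.26). *GTF2IRD2B* had 0.58, 0.50 and 0.72 CPM with CDKI-73 and 0.89, 0.83 and 0.62 CPM with DMSO, and neither it nor its close copy *GTF2IRD2* passed.

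*GTF3A*, which encodes TFIIIA, the factor that recruits RNA polymerase III to ribosomal RNA genes, had 149, 145 and 155 CPM with CDKI-73, against 122, 121 and 124 CPM with DMSO. It rose without overlap (log2 fold change 0.29, adjusted p = 0.00041 in limma), but was -0.12 under reference-gene scaling. TFIIIC, which binds inside transfer RNA genes, held 4 members that passed as lower, 1 as higher and 1 that did not pass. *GTF3C4* had 14.2, 14.0 and 8.20 CPM with CDKI-73, against 37.1, 37.5 and 36.8 CPM with DMSO. Replicate 3 was far below the other 2 treated samples, and the log2 fold change was -1.65 with it (SE 0.189, adjusted p = 7.7e-05) and -1.39 without it. *GTF3C5* had 30.04, 28.8 and 31.5 CPM with CDKI-73, against 43.7, 45.3 and 44.7 CPM with DMSO, a smaller fall (-0.57, adjusted p = 2e-05) that did not pass under upper-quartile scaling (-0.069, adjusted p = 0.26).

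*GTF3C2* and *GTF3C3* fell by 0.37 and 0.38 on the log2 scale, and both were 0.12 under upper-quartile scaling. *GTF3C6*, the smallest TFIIIC subunit, had 300, 307 and 364 CPM with CDKI-73, against 278, 256 and 242 CPM with DMSO. It rose without overlap (0.32, adjusted p = 0.008 in limma), and stood at -0.086 under reference-gene scaling. *GTF3C1*, the largest subunit, overlapped at 142, 151 and 120 CPM with CDKI-73 and 121, 124 and 148 CPM with DMSO (0.071, adjusted p = 0.56).

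Of 27 partner genes of this machinery, 26 were at the CPM limit, *TBPL2* being listed at 0. Of the 26, 17 (65.4%, beside 48.2% of all genes) passed as lower, 5 (19.2%, beside 24.2%) as higher and 4 did not pass, with 6 (23.1%, beside 22.3%) lower by at least 2-fold. The list was written with earlier results of these data known. *BRF2*, a TFIIIB subunit that acts at RNA polymerase III promoters with a TATA box, had 2.06, 1.83 and 0.61 CPM with CDKI-73, against 14.0, 13.2 and 12.3 CPM with DMSO (log2 fold change -3.20, adjusted p = 8.3e-05 in limma). *CDK7*, the kinase of TFIIH, had 11.5, 12.8 and 10.0 CPM with CDKI-73, against 52.8, 54.3 and 51.4 CPM with DMSO (-2.21, adjusted p = 1.5e-07). Both had no overlap, and the cyclin partner of *CDK7*, *CCNH*, had a log2 fold change of 0.022 (adjusted p = 0.67). *SP1* (-2.35) and *NFYA* (-1.93) were lower at adjusted p = 7.6e-08 and 2.4e-07 in limma. They encode factors of the Sp1 and NF-Y type, for which GGGCGG and CCAAT were searched above. The other NF-Y genes listed, *NFYB* and *NFYC*, were at -0.98 and -0.45. Binding to the marked letters, and any link to the members' changes, was not tested.

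Features of the members were set beside their changes as a description. Of these, DMSO CPM is part of the mean that the rule limits and of the log2 fold change itself. Members with CCGGAAG upstream had a median log2 fold change of -0.34 (14 members, 1 of them at least 2-fold lower, *GTF2A1*), against -0.69 for the 26 without it (11 at least 2-fold lower). For CCAAT the medians were -0.90 with it (15 members, 7 at least 2-fold lower) and -0.38 without it (25 members, 5). For GGGCGG they were -0.499 with it (22 members, 6 at least 2-fold lower) and -0.385 without it (18 members, 6). TATAAA, GCGCATGC and AAGATGGC were each in only 2 members. Of all genes tested, 22.3% were at least 2-fold lower, and these genes were not split by motif. The median GC content upstream was 60.2% for members and 65.2% for tested genes. Spearman's rho of the log2 fold change across the 49 members, which share the same 6 libraries, was -0.35 with gene span, 0.44 with DMSO CPM and 0.003 with exon number, beside -0.079 for span and 0.032 for DMSO CPM over all tested genes with a value. The 14 members lower by at least 2-fold had a median span of 36.4 kb and a median DMSO level of 24.6 CPM, the other 35 members 32.3 kb and 51.1 CPM. The 7 members that passed as higher had a median span of 9.9 kb.

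For 11 members a tested gene has its annotated start on the opposite strand within 1000 bases upstream or 500 bases of overlap. Starts were the outermost ends of the gene models of GENCODE release 44. CPM are per gene, so whether the reads of a neighbor such as *CCND3* came from that start was not tested. *RABL3*, beside *GTF2E1*, had 97.2, 101.8 and 94.1 CPM with CDKI-73, against 91.7, 93.4 and 94.3 CPM with DMSO. Its groups overlapped (log2 fold change 0.068, adjusted p = 0.21 in limma), next to a member at -3.34. *CCND3*, beside *TAF8*, was at -0.010 (adjusted p = 0.91), and *PSMB1*, beside *TBP*, was at 0.15 (adjusted p = 0.027). Of the 5 members in such pairs that were lower by at least 2-fold, 2 had a neighbor that was too, beside 22.3% of all genes. These were *GTF3C4* with *DDX31* (-1.65 each) and *TAF5L* (-1.62) with *URB2* (-2.07). The opposite pattern was seen for *TAF1D* at -0.60 beside *MED17* at -3.64. The gene spans of 19 members, introns included, overlap a coding gene on the other strand. The libraries were stranded per the paper, but the strand counted is not given in the sources used here.

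**Figure D4:**
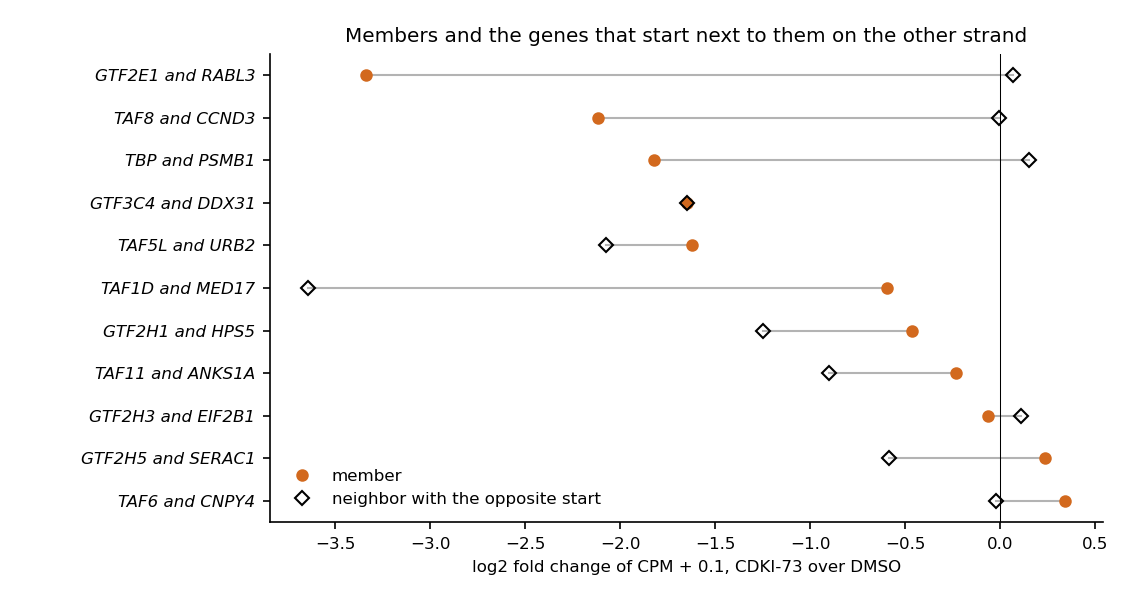
Log2 fold change of CPM + 0.1, CDKI-73 over DMSO, of 11 members (filled circles) and of the gene whose annotated start lies beside each on the opposite strand (open diamonds), joined by a line. *GTF2E1*, *TAF8* and *TBP* lie far from neighbors near 0, *GTF3C4* coincides with *DDX31*, and *MED17* lies far below *TAF1D*.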

How the data were processed

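Per the labels and the paper's methods, stranded libraries of polyA+ RNA from 6 LNCaP samples were sequenced. The authors mapped reads to hg38 with STAR and counted them per gene. The submitters' processing notes name FastQC, STAR, edgeR 3.3 and R 3.2.3. Which annotation and which strand were used for counting is not given in the sources used here. CPM per gene symbol were deposited, rounded to 2 decimals, with no scaling factor in them.

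CPM are not counts, so log2(CPM + 0.1) was tested with limma 3.58.1 (eBayes with an intensity trend) in R 4.3.3, over all 13373 genes with a mean of at least 0.5 CPM, with Benjamini-Hochberg adjustment and no covariate. Fold changes are on that scale and understate changes of low genes. Paralog ratios were compared by exact permutation, and Spearman's rho was computed with scipy 1.17.1. Read totals were inferred from the steps between CPM values. The fit was tested on simulated data.

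The members, lists and pairs were chosen with earlier results of these data known. Every member may be named. Values per sample are given for members past 2-fold, the 2 largest changes each way in each complex with 3 or more members, and one lead subunit per factor; of the partner list, the 4 largest changes. *CCNH*, *NFYB*, *NFYC*, *AK6*, *ILK* and the neighbors of members were named after their values were seen. Promoters and coordinates are from RefSeq (GRCh38.p14), with no entry for 9 members. Alternatives were other pseudocounts, filters, scalings, eBayes settings, a replicate block and each sample left out.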

Additional observations from a re-analysis of the deposited data

How the results depend on the processing

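Over 17 alternatives, 830 log2 fold changes of members were recomputed, and 731 kept their direction and side of the threshold. With the direction kept, 26 no longer passed and 25 newly passed. The other 48 changed sign, 42 of them under another scaling and 6 with a sample left out. Some of the 48 also lost or gained a call and are not in the 26 or the 25. The 14 members lower by at least 2-fold stayed within limma's adjusted threshold of 0.05 wherever they were tested. *TAF1L* was not tested at a mean of at least 2 CPM. With a pseudocount of 1 CPM *TAF1L* fell short of 2-fold, as did *TAF6L* with median-ratio scaling, and *TAF1B*, *TAF6L* and *TBPL1* with upper-quartile scaling.

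With trimmed-mean scaling 11 members were higher, their median was -0.21, and *GTF2F2* was at 0.016, *TAF2* at 0.045, *TAF1C* at 0.085, *GTF2E2* at 0.076, *GTF2H3* at 0.096, *GTF2H4* at 0.039 and *GTF2I* at 0.046. With median-ratio scaling 13 were higher, the median was -0.17, *GTF2E2* was at 0.12, *GTF2F2* at 0.057, *TAF2* at 0.086, *TAF1C* at 0.13, *GTF2H3* at 0.14, *GTF2H4* at 0.080 and *GTF2I* at 0.087. With upper-quartile scaling 17 were lower, 23 higher and 1 (*TAF10*) higher by at least 2-fold, the median was 0.12, and 12 partner genes were higher. There *TAF2* was at 0.38, *TAF11* at 0.26, *TAF12* at 0.20, *TAF1C* at 0.42, *GTF2E2* at 0.41, *GTF2F2* at 0.35, *GTF2H1* at 0.030, *GTF2H2* at 0.063, *GTF2H2C* at 0.10, *GTF2H3* at 0.43, *GTF2H4* at 0.37, *GTF2I* at 0.38, *GTF2IRD2* at 0.25, *GTF2IRD2B* at 0.10, and *GTF3C2* and *GTF3C3* at 0.12. With reference-gene scaling 44 were lower and 1 higher, the median was -0.78 and 0 partner genes were higher. There *TAF6* was at -0.068, *TAF9* at -0.30, *TAF13* at -0.28, *TAF9B* at -0.21, *TAF15* at -0.32, *GTF2A2* at -0.29, *GTF2F1* at -0.40, *GTF2H2B* at -0.34, *GTF2H5* at -0.17, *GTF3A* at -0.12, *GTF3C1* at -0.34 and *GTF3C6* at -0.086. Which scaling reflects RNA per cell was not tested.

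Leaving out each sample in turn gave 27 to 28 members lower, 4 to 8 higher (4 without DMSO replicate 3), 14 to 14 lower by at least 2-fold, a median of -0.41 to -0.35, and 16 to 17 partner genes lower and 3 to 6 higher (3 without DMSO replicate 2). The sign of 4 members that did not pass changed, over ranges of -0.16 to 0.006 for *TAF1C*, -0.047 to 0.060 for *GTF2F1*, -0.003 to 0.13 for *GTF2H2B* and -0.002 to 0.17 for *GTF3C1*. Calls were lost for *TAF9* without any 1 of 5 samples (all but CDKI-73 replicate 3), for *GTF2F2* without CDKI-73 replicate 1 or 2 or DMSO replicate 1 or 2, for *GTF2H5* without DMSO replicate 2 or 3, and for *TAF9B* without DMSO replicate 3, with adjusted p up to 0.12, 0.14, 0.12 and 0.053 in limma. With the replicate number as a block, 27 members were lower and 5 higher, and *TAF9*, *GTF2F2* and *GTF2H5* no longer passed (adjusted p = 0.10, 0.084 and 0.088 in limma). Deviations of same-numbered samples correlated at -0.295, 0.106 and -0.227, so the numbers were not taken to pair the samples.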
